A study of Mus musculus with 2 samples.

Results

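The genes described here are the nuclear genes of oxidative phosphorylation, the machinery with which mitochondria turn the energy of food into ATP. They were chosen by symbol from the autosomal protein-coding genes of GENCODE M21 (names starting with Nduf, Uqcr, Cox4 to Cox8, Cyc1 or Atp5, and Sdha to Sdhd), which gave 91 of 20780 genes. Complex I took 34 subunit genes, its Ndufaf assembly factors 8, complex II 4, complex III 9, complex IV 19 and complex V 17. Ndufa4 and Ndufa4l2 carry complex I names but were placed in complex IV, where the Ndufa4 protein is found. The rule looked at names alone and at no measured value, though it was chosen with earlier results of these data known.

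The assay was DNase-seq, which sequences the places where the enzyme DNase I can cut DNA that is not tightly wrapped. The tissue was the right cerebral cortex of female B6CASTF1/J mice, whose parents are of strains C57BL/6J and CAST/EiJ, aged 18 to 20 months and untreated. There were 2 biological replicates in 1 group and no control group, so the comparisons below are between genes within a library and no test was made. Both replicates carry the same donor identifier, and the sources used here do not say whether they came from separate animals. The spread between them may therefore be technical.

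Electrons from food enter the respiratory chain at complex I or complex II and pass through complex III and cytochrome c to complex IV, which hands them to oxygen. Complexes I, III and IV pump protons across the inner mitochondrial membrane, and complex V, the ATP synthase, lets the protons flow back to make ATP. The proteins come from both genomes of the cell, so the nuclear genes must be read together with the mitochondrial ones. Neurons depend heavily on this pathway for synaptic transmission. Several complex IV subunits exist as pairs of genes, a widely expressed form and one restricted to muscle, testis, lung or other tissues.

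The value used for each gene is the signal of the strongest peak within 500 bp of any of its annotated start sites, in the units the authors deposited. It rises with the number of DNase cuts in the peak, and the sources used here do not give its scaling. Values of all genes were higher in replicate 2, by a median of 0.50 on the log2 scale, so levels are compared within a library or after removing that shift. Each library had 2 peak lists, and the shorter was used, with 86601 peaks in replicate 1 and 88482 in replicate 2. Within a library all values were multiples of a fixed step, and if each step is 1 read, the depth was 201 M reads in replicate 1 and 112 M in replicate 2 (M for mega). On that reading the members' peaks rested on 187 to 1490 reads in replicate 1 and 214 to 887 in replicate 2. Such a peak cannot tell apart a promoter open in a few cells and one open weakly in many.

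The tissue label was checked against marker genes. A promoter peak was present in both libraries at all 4 general neuronal markers and at 3 of 5 markers of cortical excitatory neurons. Glial, microglial and endothelial markers were open at 2 of 4 (astrocytes), 1 of 4 (oligodendrocytes), 1 of 4 (microglia) and 1 of 3 (endothelium). None of 8 markers of liver, muscle, testis and lung was open in both libraries, and Prm1, a sperm protein gene, had a peak of 0.417 in replicate 1 alone.

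Promoters of the oxidative phosphorylation genes were nearly all open in the cortex. A promoter peak was found in both libraries at 82 of the 91 genes (90.1%), whereas 59.1% of all autosomal protein-coding genes had one. Complex I had 33 of 34 subunit genes open, and the assembly factors (8 of 8), complex II (4 of 4), complex III (9 of 9) and complex V (17 of 17) were complete. Complex IV was the exception with 11 of 19. The 8 unopened genes of complex IV were exactly the tissue-restricted isoforms, so that 82 of the other 83 genes had a peak in both. The list of restricted isoforms was drawn up with earlier results of these data known. With the longer peak lists 83 of the 91 genes were open, against 63.6% of all genes.

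Much of this level is shared by genes with similar promoter bases. An island-like promoter was defined by a GC content of at least 50% and a ratio of observed to expected CpG of at least 0.6, from 250 bp before to 50 bp after the start of the gene. Among all genes with such promoters 90.3% were open, and 55 of 56 oxidative phosphorylation genes with such promoters were open. The other 35 members had no island-like promoter, and 27 of them were open, whereas 36.0% of all genes without one were. The 8 unopened genes of these 35 were the tissue-restricted isoforms, a list drawn up with earlier results of these data known. No such genes were left out of the 36.0%, so leaving them out here would give no separate result. The 27 open ones include Sdhb, Ndufs8, Atp5a1, Cox6c and Atp5j2. Bases were scored at the outermost GENCODE 5′ end alone, for members and all genes alike, whereas a peak could lie at any start site. At Atp5a1, Atp5d and Atp5j2, for instance, the strongest peak of each library lay wholly outside the scored window. Their class therefore does not describe the bases of the open site. Cytosolic ribosomal protein genes (85 of 95 open, 89.5%) and proteasome genes (37 of 39, 94.9%), sets also picked by symbol, stood at similar shares. Their unopened genes were Rpl9-ps1, Rpl9-ps6, Rpl10-ps3, Rpl36-ps4, Rpl36a-ps1, Rps12-ps3, Rps27rt, Rpl3l, Rpl10l and Rpl39l, and Psma8 and Psmb11.

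The open promoters were also somewhat stronger than those of other genes. The median value over the 82 open genes was 2.82 in replicate 1 and 4.37 in replicate 2, against 2.24 and 3.28 over all open genes. Of these genes, 56 lay above the all-gene median in both libraries and 13 at or below it in both. The share of all open genes above the median in both was 44.9%. At or above the 75th percentile of open genes in both libraries were 20 of the 82 (24.4%), near the 19.8% of all open genes. On the log2 scale the members' median exceeded that of all open genes by 0.37 on average over the libraries. When the values of all peaks in a promoter were summed instead, the excess was 0.13. Ribosomal protein genes had medians of 3.18 and 4.41, and proteasome genes 2.70 and 3.81.

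**Figure D1:**
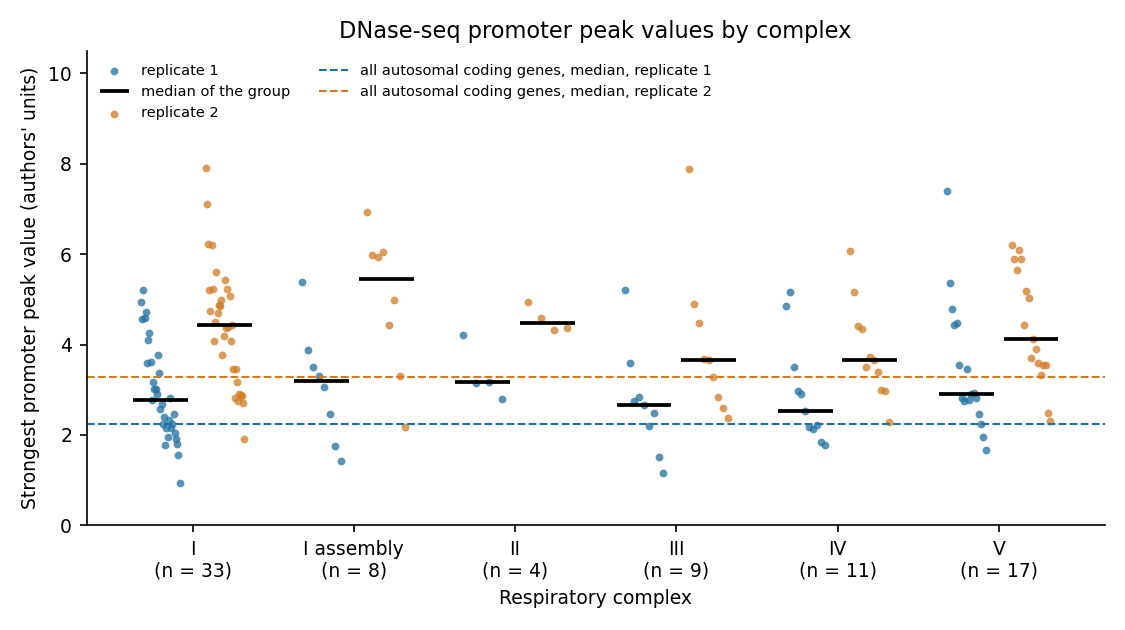
Strongest promoter peak value (vertical axis, authors' units) of each open oxidative phosphorylation gene by complex (horizontal axis), in replicate 1 (blue) and replicate 2 (orange). Black bars are group medians and dashed lines the medians of all open autosomal coding genes, 2.24 and 3.28; every group median lies above its line, which for complex III does not hold with a 100 bp window or summed peaks.

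By complex, the medians were 2.77 and 4.44 for complex I, 3.19 and 5.45 for its assembly factors, 3.17 and 4.48 for complex II, 2.66 and 3.66 for complex III, 2.53 and 3.66 for complex IV, and 2.90 and 4.13 for complex V. The complex III median fell below that of all genes when peaks were summed (-0.08 on the log2 scale) or the window was cut to 100 bp (-0.06). Values within a complex could differ widely. Complex I subunits ran from 0.929 to 5.21 in replicate 1 and from 1.91 to 7.91 in replicate 2. All 4 complex II genes and 15 of 17 complex V genes lay above the all-gene median in both libraries, as did 20 of 33 in complex I, 6 of 8 assembly factors, 5 of 9 in complex III and 6 of 11 in complex IV.

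The sequences of 5 of the strongest promoter peaks are shown so that the protected stretches can be seen in place. They are the reference sequence of GRCm38.p6 (mm10), which is that of C57BL/6J, and the hybrid mice also carry CAST/EiJ alleles. Each is the stretch common to the peaks of both libraries, at most 300 bases, in the direction of the gene. Capitals mark bases inside a footprint of both libraries, that is, a short stretch that the authors called as protected from DNase I within open chromatin.
Ndufb5, complex I, chr3:32736721-32736920, plus strand: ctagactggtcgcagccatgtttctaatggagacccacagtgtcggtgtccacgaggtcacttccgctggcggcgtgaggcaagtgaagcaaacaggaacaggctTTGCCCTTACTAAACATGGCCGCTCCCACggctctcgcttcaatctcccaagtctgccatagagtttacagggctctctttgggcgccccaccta
Sdhb, complex II, chr4:140961161-140961400, plus strand: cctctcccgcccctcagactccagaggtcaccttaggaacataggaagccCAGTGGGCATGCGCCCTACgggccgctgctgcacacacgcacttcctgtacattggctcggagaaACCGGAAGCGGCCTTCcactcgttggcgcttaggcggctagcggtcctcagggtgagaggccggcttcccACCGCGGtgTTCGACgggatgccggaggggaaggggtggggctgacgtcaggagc
Uqcrq, complex III, chr11:53430951-53431250, minus strand: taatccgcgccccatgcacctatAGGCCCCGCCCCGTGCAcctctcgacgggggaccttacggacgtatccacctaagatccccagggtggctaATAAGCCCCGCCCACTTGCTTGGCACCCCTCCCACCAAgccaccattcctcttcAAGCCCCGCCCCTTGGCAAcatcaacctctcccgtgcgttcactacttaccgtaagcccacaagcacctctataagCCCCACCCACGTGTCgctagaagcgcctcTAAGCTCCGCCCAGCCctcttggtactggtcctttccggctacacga
Cox8a, complex IV, chr19:7217541-7217780, minus strand: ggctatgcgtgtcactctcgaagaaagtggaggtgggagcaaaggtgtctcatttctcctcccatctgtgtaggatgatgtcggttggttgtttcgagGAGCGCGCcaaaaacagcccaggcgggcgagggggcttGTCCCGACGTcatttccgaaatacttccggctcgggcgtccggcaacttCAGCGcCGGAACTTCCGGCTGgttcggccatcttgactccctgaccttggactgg
Atp5g1, complex V, chr11:96075731-96076030, minus strand: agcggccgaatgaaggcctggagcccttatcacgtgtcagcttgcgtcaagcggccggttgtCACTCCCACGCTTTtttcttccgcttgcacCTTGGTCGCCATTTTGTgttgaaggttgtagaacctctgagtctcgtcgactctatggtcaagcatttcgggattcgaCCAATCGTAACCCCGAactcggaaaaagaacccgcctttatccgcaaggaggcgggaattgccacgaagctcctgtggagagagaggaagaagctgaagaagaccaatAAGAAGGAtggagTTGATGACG

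By the mean of the libraries each is the highest member of its complex apart from Cox8a, which stands in for Cox6a1 because the Cox6a1 peaks of the libraries overlapped by only 20 bp. In Sdhb the first protected run holds GCATGCGC, the reverse complement of the NRF1 letters searched below, and the next holds CCGGAAG, the core bound by ETS factors. In Uqcrq 4 of the 5 protected runs hold CCGCCC, the SP1 letters read on the other strand, and the other run holds the E-box CACGTG. The protected CTTCCGG of Cox8a is the ETS core read on the other strand, and another copy in the same peak lies outside the shared footprints. Atp5g1 has CCAAT, the NFY letters, inside a shared footprint.

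Complex I takes electrons from NADH. Its strongest promoters were those of Ndufb5, an accessory subunit of the membrane arm, with 4.94 in replicate 1 and 7.91 in replicate 2; Ndufv3, an accessory subunit of the NADH-binding module, with 4.57 and 7.11; and Ndufv1, the subunit that binds NADH and the flavin, with 5.21 and 6.22. All 3 stood at or above the 87.8th percentile of open genes in replicate 1 and the 91.2nd in replicate 2. The 7 core subunits that carry the flavin and iron-sulfur clusters had a median of 4.26 and 4.44, and the 26 open accessory subunits 2.72 and 4.44. The core subunits were thus higher in replicate 1 and level in replicate 2, and the order of these classes was not the same in both libraries. Ndufc2, a small membrane-arm subunit, was the lowest open member of all, at 0.929 and 1.91.

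Ndufa13, a small accessory subunit, was the only gene of complex I with no promoter peak in either library. Its single GENCODE start site is at position 69902558 of chromosome 8, on the minus strand. Strong peaks lay on both sides just outside the window. One at chr8:69901581-69901800 had 3.19 in replicate 1 and 5.35 in replicate 2 and began 758 bp from that start, and another, ending at 69903460, had 5.74 and 5.98 and lay 603 and 583 bp away. RefSeq places the start at 69902020, which is 220 bp from the former peak. Counting the RefSeq start, an alternative chosen after this gap was seen, raised the complex I count to 34 of 34.

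The assembly factors build complex I without staying in it. Ndufaf8 had 5.38 and 6.93, Ndufaf5 3.87 and 5.97, and Ndufaf7 3.50 and 5.93, and the lowest was Ndufaf1 with 1.43 and 2.18. Of 7 further complex I assembly genes outside the symbol rule, all 7 were open, from Tmem126b (6.32 and 6.89) and Foxred1 (5.72 and 7.26) down to Nubpl (2.08 and 3.98) and Tmem186 (2.21 and 1.85).

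Complex II, succinate dehydrogenase, is the one complex encoded by nuclear genes alone, and it also belongs to the citrate cycle. Its 4 promoters lay close together. Sdhb, the iron-sulfur subunit, had 4.21 and 4.93, Sdhd, a membrane anchor, 3.15 and 4.59, Sdha, the flavoprotein, 3.18 and 4.33, and Sdhc, the other anchor, 2.79 and 4.37. All 13 autosomal citrate cycle genes were open as well, from Suclg2 (0.760 and 1.04) to Mdh2 (5.51 and 7.19). Of the 4 complex II assembly factors 3 were open, and Sdhaf1 had no peak.

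Complex III passes electrons from ubiquinol to cytochrome c. Uqcrq, a small subunit, had 5.21 and 7.87, Uqcrfs1, the Rieske iron-sulfur protein, 3.60 and 4.89, and Uqcrh, the hinge protein, 2.75 and 4.47. The peak of Uqcrq was shared with the neighbouring start of Gdf9, an oocyte growth factor gene, 192 bp away on the other strand. Cyc1, cytochrome c1, was among the lowest members with 1.15 and 2.38. All 6 assembly factors of complex III were open. Cycs, the somatic cytochrome c that links complexes III and IV, had 5.02 and 6.98, whereas Cyct, its testis form, had no peak in either library.

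Complex V makes ATP. Atp5g1, one of the 3 genes that encode the same mature c subunit of the membrane rotor, had 7.41 and 6.21. It was the highest member in replicate 1, and its peak was also among the widest, at 360 and 480 bp. The other 2 c subunit genes had 4.43 and 6.09 (Atp5g2) and 2.24 and 3.54 (Atp5g3), so Atp5g3 was lowest in both libraries. The 5 subunits of the catalytic F1 head had a median of 4.48 and 5.64, with Atp5b, the catalytic beta subunit, at 5.36 and 5.88 and Atp5d, the delta subunit, at 4.79 and 5.64. The alpha subunit gene Atp5a1 was much lower, at 1.96 and 2.48, although both proteins enter the head in equal number. The 12 other members of complex V had a median of 2.82 and 3.80.

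Complex IV passes electrons to oxygen, and it is here that the isoform pairs lie. Cox6a1 had 4.85 and 6.06, Cox8a 5.15 and 5.15, and Cox5b, which has no isoform pair, 3.50 and 4.41. All 7 widely expressed isoforms were open in both libraries: beside Cox6a1 and Cox8a, Cox7a2 had 2.98 and 4.35, Ndufa4 2.13 and 3.40, Cox4i1 2.21 and 2.99, Cox7a2l, which encodes a supercomplex factor related to Cox7a2, 1.84 and 2.98, and Cox6b1 1.77 and 2.29. None of the 8 tissue-restricted forms was open in both. No peak was found in either library at Cox4i2, expressed in lung and in response to low oxygen; Cox6a2 and Cox8b, of heart and skeletal muscle; Cox7b2 and Cox8c, of testis; or Ndufa4l2, induced by low oxygen. All 18 complex IV assembly factors examined were open.

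**Figure D2:**
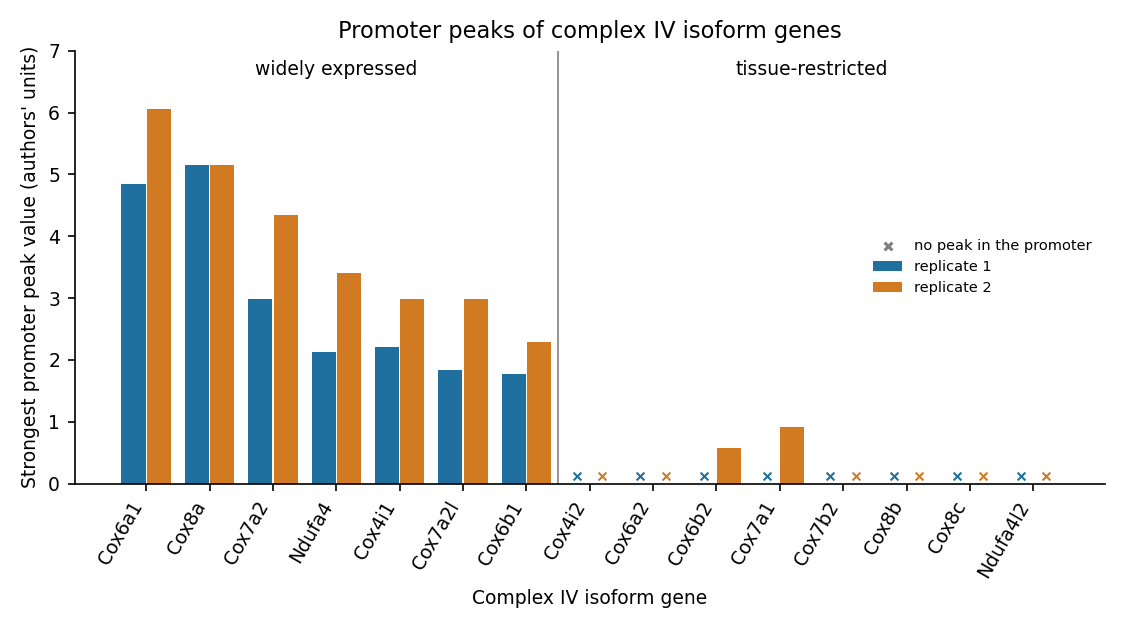
Strongest promoter peak value (vertical axis, authors' units) of each complex IV isoform gene (horizontal axis) in replicate 1 (blue) and replicate 2 (orange); crosses mark promoters with no peak. The 7 widely expressed isoforms lie between 1.77 and 6.06, and among the 8 restricted ones only Cox6b2 (0.580) and Cox7a1 (0.918) have a bar, both in replicate 2.

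The exceptions were Cox6b2, a testis form, with 0.580, and Cox7a1, a heart and skeletal muscle form, with 0.918, each in replicate 2 alone. If 1 step is 1 read, these rest on 65 reads (exact 95% Poisson interval 50.2 to 82.8) and 103 reads (84.1 to 125), and such intervals cover counting error only. Cox6b2 lay at the 1.39th percentile of open genes in that library. In the longer lists Cox7a1 also had a peak in replicate 1, of 0.557, and Cox6b2 did not. The deposited intervals with a false discovery rate (FDR) below 0.05 held no base in the promoters of Cox4i2, Cox6a2, Cox7b2, Cox8b, Cox8c and Ndufa4l2 in either library. Cox6b2 had 0 and 301 listed bases and Cox7a1 127 and 308, whereas Cox8a had 691 and 754 and Cox7a2 1009 and 1006. Of 7666 genes with no promoter peak in either library, 85.2% also had no listed base in either and 5.92% had some in both. For these 6 genes opening was not detectable at this depth.

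The promoters of the isoform pairs differ in base composition. Of the 7 widely expressed isoforms 6 had an island-like promoter, the exception being Cox7a2l, and none of the 8 restricted ones had. This rests on the GENCODE 5′ end, and the RefSeq promoter of Cox7a2l, with 19 CpG, a GC content of 55% and a ratio of 0.85, does meet the definition. At the GENCODE 5′ ends the number of CpG dinucleotides in the 300 bp window ranged from 3 (Cox7a2l) to 48 (Cox4i1) in the former and from 2 (Cox6a2 and Cox8b) to 16 (Cox4i2) in the latter, so the ranges overlapped, as they did without Cox7a2l (lowest 14, Ndufa4). The RefSeq promoters of Cox8a and Cox8b, a pair in which the open gene has 19 CpG and the closed one 2, are given with each CpG in capitals, from 250 bases before the start to 50 after it on GRCm38.p6.
Cox8a, chr19:7217567-7217866, minus strand: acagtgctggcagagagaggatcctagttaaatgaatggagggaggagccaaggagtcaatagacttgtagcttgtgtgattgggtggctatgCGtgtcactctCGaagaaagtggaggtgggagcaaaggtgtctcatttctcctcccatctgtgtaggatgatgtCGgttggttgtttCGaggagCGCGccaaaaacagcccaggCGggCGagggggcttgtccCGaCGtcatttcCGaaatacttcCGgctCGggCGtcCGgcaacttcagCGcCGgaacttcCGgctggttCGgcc
Cox8b, chr7:140900397-140900696, minus strand: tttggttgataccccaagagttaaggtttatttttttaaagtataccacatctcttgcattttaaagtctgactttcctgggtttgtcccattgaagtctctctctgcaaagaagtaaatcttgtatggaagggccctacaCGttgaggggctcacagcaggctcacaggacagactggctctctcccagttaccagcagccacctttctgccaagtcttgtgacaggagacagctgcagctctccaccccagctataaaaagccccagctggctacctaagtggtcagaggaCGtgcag

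**Figure D3:**
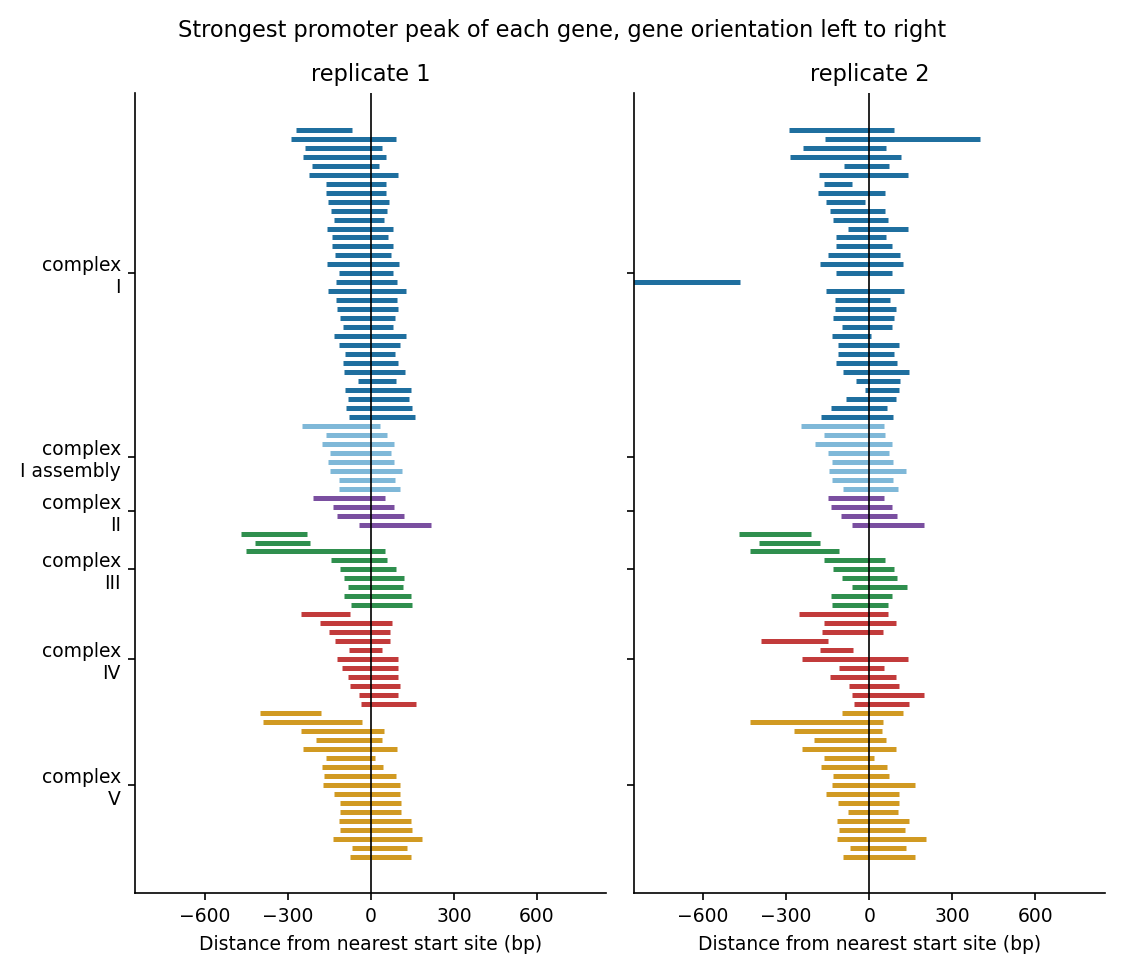
Position of the strongest promoter peak of each of the 82 open genes (rows, grouped and coloured by complex) relative to the nearest annotated start site (horizontal axis, bp, negative values upstream) in replicates 1 and 2. Most bars cross the start at 0, and those of Uqcrh and Uqcr10 lie wholly to the left of it in both libraries.

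Peaks sat on the start sites. The strongest peak covered an annotated start at 76 of the 82 genes in replicate 1 (92.7%) and at 74 in replicate 2 (90.2%), against 78.4% and 77.2% of all open genes. Open ribosomal protein genes (95.3% and 89.4%) and proteasome genes (97.3% and 91.9%) stood at similar shares. The median distance of the peak centre from the nearest start was -18.3 bp in replicate 1 and -25 bp in replicate 2, where a negative sign means upstream. The 2 genes with no start covered in either library were both of complex III, Uqcrh (centres at -350 and -340 bp) and Uqcr10 (-319 and -289 bp). The peaks of Uqcrq (-200 and -270 bp) and Atp5g1 (-211 and -191 bp) were also centred upstream in both libraries, and each covered a start in 1 of them. Uqcrh, Uqcr10 and Uqcrq each have a coding neighbour on the other strand in that direction. The strongest peaks of the libraries overlapped at 79 of 82 genes, and those of Ndufa11, Cox7a2l and Atp5l did not.

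Peak widths told the complexes apart little. The median width was 220 bp in each library, beside 240 bp over all open genes. Median widths by complex lay between 200 and 260 bp in both libraries. The widest peaks were those of Ndufs7, a core complex I subunit (380 and 560 bp), Atp5g1 (360 and 480 bp) and Uqcrq (500 and 320 bp). The narrowest were 120 bp (Cox6a1, replicate 1) and 100 bp (Ndufb3, replicate 2).

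Footprints were counted in each strongest peak. The median was 4 in replicate 1 and 5 in replicate 2, and 4 in each over all open genes. By complex the medians ranged from 4 to 5.5. Atp5g1 had the most, 9 and 10, followed by Ndufs7 with 7 and 10, and 5 genes (Uqcrq, Ndufaf8, Atp5b, Ndufa12 and Atp5c1) shared a mean of 7.5. Members differed more in the bases covered than in the number of footprints. Footprints took 27.3% of the peak bases in replicate 1 and 32.9% in replicate 2, against 22.5% and 27.2% in the peaks of all open genes. A footprint of replicate 1 met one of replicate 2 in 79.9% of cases in members' overlapping peaks and 71.9% in those of all genes. In the other direction the shares were 70.3% and 65.2%.

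Many of these genes stand back to back with another gene. A start site of another protein-coding gene lay on the other strand within 1000 bp upstream at 32 of the 91 genes (35.2%), and 29 of these were within 200 bp. Among all autosomal coding genes the share was 11.3%. Restricted to open genes the shares were 39.0% and 17.8%. The pairs include Ndufs1 with Eef1b2, a translation elongation factor gene, 3 bp apart; Ndufa7 with Rps28, a ribosomal protein gene, 10 bp apart; and Ndufs6 with Mrpl36, a mitochondrial ribosomal protein gene, 51 bp apart. Sdhd faced Timm8b, a gene of mitochondrial protein import, at 98 bp. Atp5j, a stalk subunit of complex V, faced Gabpa, which encodes the DNA-binding subunit of an ETS factor, at 93 bp.

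The share was highest in complex II (3 of 4) and lowest in complex IV (2 of 19). At 29 of the 82 open genes in replicate 1 and 30 in replicate 2 the strongest peak was also that of another coding gene (35.4% and 36.6%), beside 18.2% and 18.4% of all open genes. For those pairs the value cannot be divided between the 2 genes. Facing pairs had stronger peaks among all open genes, with medians of 3.12 and 4.33 against 2.03 and 3.01 for genes without such a neighbour. Among the members the medians were close, 2.88 and 4.41 with a neighbour and 2.77 and 4.36 without. Members without a neighbour thus lay above other genes without one.

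Sequence motifs of regulators known from this pathway were searched in the strongest peaks, on both strands. NRF1 (nuclear respiratory factor 1) and the ETS factor GABP, also called NRF2, are the classical activators of these genes, and YY1 and ERR alpha have also been tied to them. A match is a run of letters and not a bound site. The letters were GCGCATGC for NRF1, CCGGAAG for ETS factors, AAGATGG for YY1, GGGCGG for SP1, CCAAT for NFY, TCAAGGTCA for ERR, CACGTG for the E-box, TGANTCA for AP-1 and TGACGTCA for CRE. None of these runs contains another, though matches of different motifs can overlap in a promoter.

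**Figure D4:**
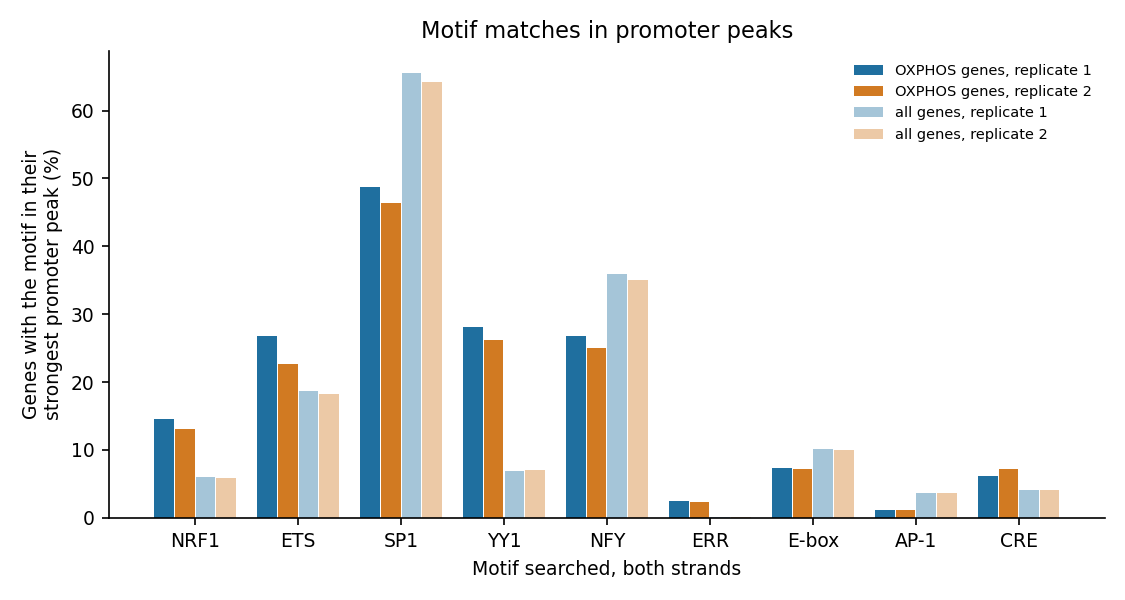
Share of genes (vertical axis, %) whose strongest promoter peak holds each motif (horizontal axis), for oxidative phosphorylation (OXPHOS) genes (dark) and all autosomal coding genes (pale), in replicate 1 (blue) and replicate 2 (orange). The dark bars are above the pale ones for NRF1, ETS and YY1 and below them for SP1 and NFY in both libraries.

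NRF1 letters were found in 12 of 82 members in replicate 1 (14.6%) and 11 of 84 in replicate 2 (13.1%), against 6.06% and 5.89% of all genes with a promoter peak. Where they occurred they were mostly protected: 18 of 19 matches in replicate 1 and 14 of 18 in replicate 2 lay wholly inside a footprint, and among all genes 72.9% and 75.4% did. A run of GCGCATGCGC holds the letters on both strands and counts as 2 matches, in members and all genes alike. The 19 and 18 matches come from 12 and 11 members, and not all are separate sites. Per library, 13.4% and 10.7% of members held a protected match, against 4.34% and 4.27% of all genes. The matches of 8 members were protected in both libraries. They come from complex I and its assembly factors (Ndufa8, Ndufaf4 and Ndufaf5), complex II (Sdhb), complex III (Uqcrc1), complex IV (Cox6c) and complex V (Atp5g2 and Atp5k), so each complex has at least 1. The 40 bases around these matches follow in the direction of the gene. Capitals mark the bases shared by both libraries in the footprint that holds the match, and neighbouring footprints are not marked.
Ndufa8, chr2:36049323-36049362, minus strand: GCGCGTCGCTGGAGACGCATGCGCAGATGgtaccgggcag
Ndufaf4, chr4:24897954-24897993, plus strand: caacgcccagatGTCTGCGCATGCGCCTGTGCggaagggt
Ndufaf5, chr2:140170646-140170685, plus strand: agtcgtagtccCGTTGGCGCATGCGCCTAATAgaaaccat
Sdhb, chr4:140961201-140961240, plus strand: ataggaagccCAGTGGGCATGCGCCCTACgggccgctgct
Uqcrc1, chr9:108936662-108936701, plus strand: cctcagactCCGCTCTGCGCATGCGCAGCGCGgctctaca
Cox6c, chr15:35938165-35938204, minus strand: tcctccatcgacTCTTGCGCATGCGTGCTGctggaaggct
Atp5g2, chr15:102671064-102671103, minus strand: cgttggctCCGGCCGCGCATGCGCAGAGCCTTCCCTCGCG
Atp5k, chr5:108434424-108434463, minus strand: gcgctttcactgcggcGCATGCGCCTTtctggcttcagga

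The protected stretch common to both libraries was centred on the match in most of these and ran from 11 bases (Atp5k) to 41 (Ndufa8). Counted in the same way, with some sites entering more than once, the matches also sat in an unusual place. Of the 19 in members' peaks of replicate 1, 11 (57.9%) lay downstream of the nearest start site, and 11 of 18 (61.1%) did in replicate 2. Among all genes 21.7% and 21.1% lay downstream. In the 8 windows above the centre of the match was downstream in 6, by 4.5 bp (Atp5k) to 63.5 bp (Ndufa8), and upstream in Ndufaf4 (-110 bp) and Uqcrc1 (-32.5 bp).

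ETS letters occurred in 22 of 82 members (26.8%) in replicate 1 and 19 of 84 (22.6%) in replicate 2, against 18.7% and 18.2% of all genes. Of these matches 6 of 27 were wholly protected in replicate 1 (22.2%) and 6 of 24 in replicate 2 (25.0%), near the 18.4% and 21.8% over all genes. They were protected in both libraries at Ndufb9, Cox8a, Sdhb and Atp5k, so that Sdhb and Atp5k held protected NRF1 and ETS letters together. Per library, 7.32% and 7.14% of members held a protected ETS match, against 4.12% and 4.67% of all genes. SP1 letters went the other way, being present in 48.8% and 46.4% of members and in 65.5% and 64.2% of all genes. NFY letters were found in 26.8% and 25.0% of members and 35.9% and 35.1% of all genes, a direction that turned (1.02 percentage points more in members) when a fixed window of 300 bp at the 5′ end was searched in place of the peak. The ERR letters were in only 2 members, Atp5g3 and Sdhd, and in 13 of all 12593 genes with a promoter peak in replicate 1 and 16 of 12794 in replicate 2. The E-box was in 6 members in each library (7.32% and 7.14%, against 10.1% and 10.1% of all genes) and AP-1 letters in 1 (1.22% and 1.19%, against 3.70% and 3.60%, a direction that turned in the fixed window). CRE letters were in 5 and 6 members (6.10% and 7.14%, against 4.06% and 4.12%).

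The widest gap was that of the YY1 letters AAGATGG, present in 23 of 82 members (28.0%) in replicate 1 and 22 of 84 (26.2%) in replicate 2, against 6.90% and 7.10% of all genes. Fewer of them than of the NRF1 letters were protected, with 3 of 25 matches in replicate 1 and 3 of 24 in replicate 2 wholly inside a footprint and no member protected in both. Over all genes 12.9% and 13.2% of the matches were, so the members stood near the general level. AAGATGG contains ATG, and at 15 members that ATG was an annotated start codon, in both libraries. These matches made up 15 of 25 (60%) and 15 of 24 (62.5%) of the members' matches, and 32.6% and 32.8% of those of all genes. In terms of genes, 18.3% and 17.9% of members and 2.43% and 2.51% of all genes had such a start codon in the strongest peak. Matches elsewhere in the peak were found at 12.2% and 10.7% of members and at 4.58% and 4.70% of all genes, so the gap was present in both places and wider at start codons. In the fixed 300 bp window, which ends 50 bp after the start site, members exceeded all genes by 6.42 percentage points, and in the peaks by 20.1.

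The start codons of 5 of these members are printed to show the shared run, with the YY1 letters in capitals, from 15 bases before the start codon and in the direction of translation. They were taken from the members with the highest promoter values among those whose own start codon it is.
Ndufa6, chr15:82354214-82354243, minus strand: ggcttcctcggcAAGATGGcggccgcggcc
Ndufa9, chr6:126849098-126849127, minus strand: gcattgtgggagAAGATGGcggccgccgtc
Ndufb8, chr19:44555387-44555416, minus strand: gcggagaaggtgAAGATGGctgccgcccgg
Ndufc1, chr3:51408916-51408945, minus strand: agcctgcggaacAAGATGGcgccgtccgta
Sdhc, chr1:171150564-171150593, minus strand: aggccggaactcAAGATGGctgcgttcttg

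The codon after ATG began with GC, and so encodes alanine, at all 15, and at 86.7% and 87.5% of such start codons over all genes. The G of that codon is the last of the searched letters and was fixed by the search, so only the C was free to vary. At 14 of the 15 the start codon belonged to the member itself, and at Uqcrh it belonged to its neighbour Lrrc41. Complex I subunits made up 10 of the 15 (among them Ndufs4, Ndufs6, Ndufs7, Ndufa2 and Ndufa3, beside those printed), and the others were Sdhc, Uqcrc1, Uqcrh, Atp5j2 and Atp5o.

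The genes that encode the known regulators were themselves mostly open, with 11 of 12 in both libraries. Esrra, which encodes ERR alpha, had one of the highest promoter values of all genes, 7.54 and 9.31, at the 99.6th and 99.5th percentile. Nrf1 had 2.84 and 2.99, Yy1 4.69 and 4.34, and Tfam, which packages and transcribes mitochondrial DNA, 3.18 and 4.49. Gabpa shared its peak with Atp5j and so had the same values, 2.83 and 3.32. Ppargc1a, the coactivator PGC-1 alpha, had a peak of 0.462 in replicate 1 alone. The 3 complex I and IV genes on the X chromosome, which the symbol rule left out, were open at low values: Ndufa1 at 1.52 and 2.15, Ndufb11 at 1.47 and 1.75 and Cox7b at 1.11 and 1.18.

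**Figure D5:**
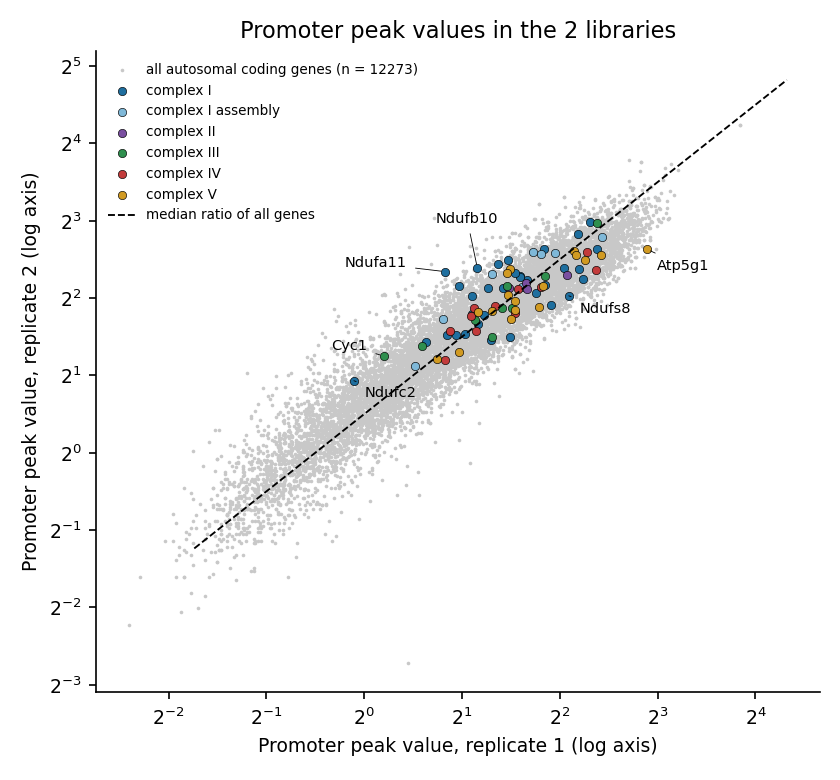
Strongest promoter peak value in replicate 1 (horizontal axis) and replicate 2 (vertical axis), both on log axes, for all open autosomal coding genes (grey) and oxidative phosphorylation genes (coloured by complex). The dashed line is the median ratio of all genes; Ndufa11 and Ndufb10 lie above it and Atp5g1 and Ndufs8 below it.

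Once the all-gene shift was removed, the libraries gave similar values for most members. The median absolute difference was 0.19 on the log2 scale, beside 0.23 for all open genes. Counting error alone would give a standard error of 0.09 at the median member, and 46 of 82 members (56.1%) differed by more than 2 of their own standard errors, as did 52.2% of all genes. The complexes leaned in different directions: 22 of 33 complex I subunits and 7 of 8 assembly factors were relatively higher in replicate 2 (medians -0.17 and -0.19 for replicate 1 over replicate 2), whereas 12 of 17 complex V genes were relatively higher in replicate 1 (median 0.10). With 1 library on each side this has no test, and the order of the complexes within a library moves with it.

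The largest centred differences toward replicate 1 were those of Atp5g1 (0.76), Ndufs8, a core complex I subunit (0.56), and Ndufb4, an accessory one (0.50). The largest toward replicate 2 were those of Ndufa11 (-1.02), Ndufb10 (-0.73) and Ndufs7 (-0.68). In Ndufa11 the libraries chose different peaks, one of 1.77 centred at -16.5 bp in replicate 1 and one of 5.07 centred at -667 bp in replicate 2, so its value compares different places. The Ndufs7 peak was wider in replicate 2 (560 bp against 380 bp).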

How the data were processed

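DNase-seq peaks, footprints and intervals of 2 replicates of right cerebral cortex were used. The peak files hold a signal per peak, as the authors deposited it, and the sources used here name neither its scaling nor the peak caller or aligner. Footprint files hold a p-value threshold of 0.01 in all rows, and interval files list only a false discovery rate (q-value) below 0.05, as the authors deposited them. Coordinates are mm10, per the labels.

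The shorter of the 2 peak lists of each library was used, and the longer as an alternative. Start sites came from GENCODE M21. A promoter peak met a start site ±500 bp by at least 1 bp. The strongest gave the value, width, footprints (at least 1 bp overlap) and motifs. A motif was called protected where it lay wholly in 1 footprint. Sequence came from GRCm38.p6, and promoters from RefSeq, which matched 71 of 91 members. Genes are not replicates, so no test was made. A depth of 201 M and 112 M reads is inferred from the steps of the values (within 0.05 steps) and sets the counting error.

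Members and lists were chosen with earlier results of these data known. Named genes were the 3 highest of each complex, those without a peak in both libraries, the isoform pairs, the 3 largest differences between libraries each way, and the 3 with most footprints or widest peaks. Other values named were chosen after they were seen. The values of 1 member are not reported here. Alternatives changed the peak list, window, start sites, value scale, footprint rule and motif window, or left out a replicate. Python 3 scripts were tested on simulated peaks.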

Additional observations from a re-analysis of the deposited data

How the results depend on the processing

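The count of open members (82) ranged from 79 to 85, and the count of open broad isoforms stayed at 7, over the alternatives run. Of 293 values recomputed, 239 were called unchanged, 50 moved and 4 turned in direction. Counts were unchanged within 1.5 times, and differences between the libraries within the median counting error (0.089, log2). Footprints per 100 bp were judged by direction against all genes alone, and all other values by the spread between the replicates. Direction was checked for log2 values, library differences and motif gaps, and not for widths or footprint counts. No cause of these moves was tested. The excess of the members' median over that of all open genes (0.37, log2) was 0.48 with the longer peak list, 0.26 with the stronger 50% of peaks, 0.13 with summed peaks and 0.37 to 0.47 when a replicate was left out. With the longer list it was 0.48 for complex I, 0.58 for II, 0.31 for III, 0.21 for IV and 0.46 for V. With the stronger 50% of peaks these were 0.25, 0.36, 0.087, 0.048 and 0.23. With summed peaks they were 0.10, 0.30, -0.078, 0.15 and 0.20, and 0.46 for the assembly factors. Complex III turned to -0.062 with a 100 bp window. Complex IV gave 0.19 on percentiles and 0.12 with a 2000 bp window, and complex V 0.29 with gene 5′ ends alone. Leaving out a replicate gave 0.34 to 0.49 (I), 0.55 to 0.79 (assembly), 0.51 to 0.54 (II), 0.22 to 0.29 (III), 0.15 to 0.21 (IV) and 0.39 to 0.41 (V). Restricted isoforms counted as open were 1 with the longer list, 2 with a 2000 bp window, and 0 to 2 when a replicate was left out. In a 300 bp window at the 5′ end the members' share minus that of all genes was 5.66 percentage points for NRF1, -16.0 for SP1, 6.42 for YY1, 1.02 for NFY and 0.16 for AP-1. No paired analysis was possible because there is 1 group and no test. With 2 libraries the error of any value rests on 1 difference.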
